A study of Mus musculus with 9 samples.

Results

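The genes examined were those of Mediator and of the general factor TFIID, the complexes that link activators to RNA polymerase II, in B16F10 mouse melanoma cells labelled as Tada2b knockout and in control cells. They were chosen by symbol among the protein-coding genes of GENCODE M21: every Med gene with a number, every Taf gene with a number, and Tbp, Tbpl1, Cdk8, Cdk19 and Ccnc. The Taf genes of the RNA polymerase I factor SL1 and those whose products also sit in the SAGA coactivator, or are paralogues that do, were left out. This gave 48 of the 54752 genes in the deposited table, 33 of Mediator, 14 of TFIID with its paralogues, and Taf15. Of the 48, 46 passed the filter on low counts, among 17931 genes tested. The 9 libraries formed 3 groups of 3. Tada2bsg1 (guide 1) and Tada2bsg2 (guide 2) carried a guide named for Tada2b and the genotype Tada2b knockout, and GFPsg carried a guide named for GFP and the genotype WT. All were B16F10 cells grown in DMEM with serum, and whether they were clones or pools was not given in the sources used here.

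Mediator is a large coactivator that receives signals from DNA-bound activators and passes them to polymerase at the promoter. Its core is divided into a head, a middle and a tail that are held on a scaffold subunit, MED14, while a separable kinase module, made of CDK8 or CDK19, cyclin C, MED12 or MED12L and MED13 or MED13L, binds the core reversibly and limits its contact with polymerase. TFIID consists of the TATA-binding protein and its associated factors (TAFs), recognises core promoters and starts assembly of the preinitiation complex. Tada2b encodes an adaptor of the acetyltransferase module of SAGA, another coactivator, which shares several TAFs with TFIID and also helps deliver the TATA-binding protein.

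Each library held between 70.6 and 76.9 M counts (M, mega), and each tested Mediator or TFIID gene had 224 to 17008 counts per library. Tada2b itself stood at 32.3 to 33.3 CPM (counts per 1 M of the scaled library size) with guide 1 and 25.9 to 29.0 CPM with guide 2, against 25.2 to 28.0 CPM in GFPsg. The mRNA level thus did not fall and lends the knockout label no support. That level alone does not show whether the gene was knocked out, which was not tested, and the libraries are described by the label. All 7 melanocyte markers examined passed the filter and fell, with a summed level of 4970 to 5210 CPM with guide 1 and 7030 to 7270 CPM with guide 2, against 20300 to 21100 CPM in GFPsg. Among markers of other cell types, the 8 leukocyte markers summed to 6.65 to 7.02 CPM with guide 1 and 5.95 to 6.18 CPM with guide 2, against 3.59 to 3.89 CPM in GFPsg, and Ptprc and Itgam had 0 counts in all 9 libraries. The 8 fibroblast and endothelial markers summed to 24.3 to 24.7 CPM with guide 1 and 21.7 to 24.0 CPM with guide 2, against 7.69 to 10.3 CPM in GFPsg, and in each of these lists 3 of the 8 passed the filter. Of the leukocyte markers that passed, Cd68 (log2 change with both guides 1.09) and Lyz2 (1.08) rose, while Fcer1g fell (−1.19). Of the fibroblast and endothelial markers that passed, Pdgfrb (1.45) and Col1a2 (1.68) rose, and Pdgfra (−0.04) was not called. The sums thus do not stand for every marker in a list. The 5 epithelial markers summed to 0.115 to 0.296 CPM with guide 1 and 0.195 to 0.263 CPM with guide 2, against 0.765 to 0.797 CPM in GFPsg. Only Cdh1 of these 5 passed the filter, and it fell (−2.03). The part of these shifts in the results that follow was not tested. In such bulk samples, fewer cells of a type and less RNA per cell cannot be told apart.

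Most Mediator and TFIID genes differed little between the libraries labelled knockout and the controls, and the largest falls were in the kinase module, where Cdk19 and Med12l fell while Cdk8, Ccnc, Med12 and Med13 rose. With both guides set together against GFPsg, 18 of the 46 tested genes (39.1%) were called by edgeR's quasi-likelihood test at an adjusted p under 0.05, against 51.0% of all genes tested. Of these, 9 were higher, where 24.7% of all genes were, and 9 were lower, where 26.3% were. All genes tested include noncoding and weakly counted genes, unlike the 46. Among protein-coding genes, by class of exon length, 27.3% to 32.5% were higher and 29.4% to 32.2% lower. The median size of the log2 change, regardless of direction, was 0.09 over the 46 genes and 0.24 over all genes tested, and the median change with its sign was 0.03 and −0.02. Only Cdk19 was called with a change of at least 1.5-fold, a size that 18.4% of all genes tested reached. Scaling mattered for direction, since with library size alone 22 genes were higher and 4 lower. The median change of all genes tested moved too, from −0.019 to 0.066. The shares of all genes called under that scaling, or kept under each setting below, were not taken. Of the 18 calls, 11 were kept under each of 14 alternative settings: Cdk19, Med12l, Taf5 and Taf7 lower, and Cdk8, Med12, Med13, Med14, Med15, Med25 and Med27 higher. The same 11 were the genes called in the same direction with each guide, where 39.4% of all genes tested were: 7 were higher (19.6% of all genes) and 4 lower (19.8%).

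**Figure D1:**
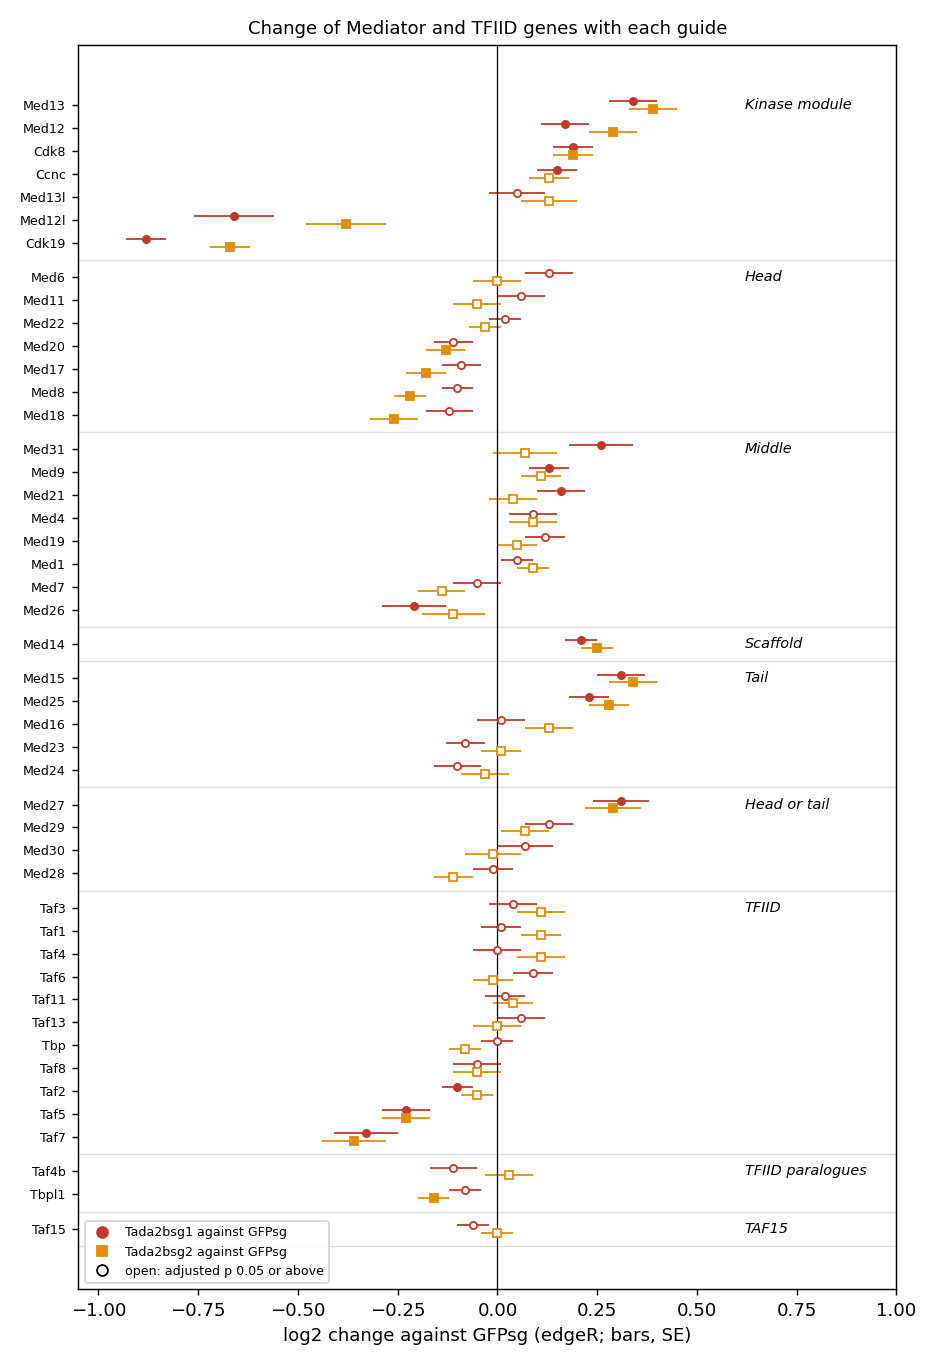
Each row is 1 of 46 tested genes, grouped by module, with its log2 change against GFPsg on the x axis for guide 1 (circles) and guide 2 (squares); bars are standard errors, and open symbols were not called at an adjusted p of 0.05. Cdk19 (−0.88 and −0.67) and Med12l (−0.66 and −0.38) lie furthest to the left, and Med13 (0.34 and 0.39) furthest to the right with guide 2.

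In the kinase module Cdk8 and Cdk19 changed in opposite directions, as did Med12 and Med12l, while Med13 and Med13l had the same sign. Among the 7, 4 passed the test as higher and 2 as lower, where 24.7% and 26.3% of all genes tested did. Med13l was not called, and the same counts were obtained with each of the scalings tried. Cdk19 encodes the alternative kinase of the module and lies on chromosome 10 (40339564 to 40483818, plus strand, mm10). It was counted at 20.7, 20.3 and 19.3 CPM with guide 1 and 23.9, 23.7 and 21.9 CPM with guide 2, against 37.3, 37.4 and 35.9 CPM in GFPsg. Every library labelled knockout lay below every control. The log2 change was −0.77 ± 0.04 (SE; edgeR adjusted p = 1.03e-10), a fall of 41.5%, and it was −0.88 ± 0.05 with guide 1 and −0.67 ± 0.05 with guide 2.

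Cdk8 encodes the founding kinase of the module, which phosphorylates polymerase-associated proteins and transcription factors, and lies on chromosome 5 (146231230 to 146302874, plus strand). Its level was 60.4 CPM in each of the guide 1 libraries and 61.8, 61.1 and 58.4 CPM with guide 2, against 52.0, 57.8 and 49.6 CPM in GFPsg. The groups did not overlap, although GFPsg replicate 2 came within 1 CPM of the lowest guide 2 library. The log2 change was 0.19 ± 0.04 (adjusted p = 0.00183), and it was 0.19 with each guide. Cdk8 and Cdk19 are similar in sequence, and HTSeq by default drops reads that align equally well to more than one place, so a loss of shared reads from both counts is possible.

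Ccnc, which encodes cyclin C, the partner of both kinases, stood at 93.3, 92.5 and 92.9 CPM with guide 1 and 86.3, 91.6 and 96.9 CPM with guide 2, against 77.4, 85.3 and 89.2 CPM in GFPsg. The guide 2 and control libraries overlapped. Its log2 change was 0.14 ± 0.04 (adjusted p = 0.0177), and the call was lost without GFPsg replicate 1, the lowest library (0.08, adjusted p = 0.140; adjusted p 0.00023 to 0.0319 under the other alternatives).

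Med13 encodes the subunit that joins the kinase module to the core and lies on the minus strand of chromosome 11 (86267033 to 86357602). It reached 194, 204 and 189 CPM with guide 1 and 224, 206 and 177 CPM with guide 2, against 159, 152 and 152 CPM in GFPsg. The groups did not overlap, but guide 2 replicate 1 was the highest library and the spread within guide 2 was wide. Med13 had the largest rise of the genes examined, 0.36 ± 0.05 (adjusted p = 2.82e-05), or 28.7%. An antisense gene, Brip1os, covers 7.38% of its exon bases and changed by 0.10.

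Med12, which encodes the subunit that activates the kinase, was counted at 46.8, 44.6 and 44.4 CPM with guide 1 and 54.4, 47.8 and 45.6 CPM with guide 2, against 42.3, 39.7 and 38.6 CPM in GFPsg, again without overlap. Its log2 change was 0.23 ± 0.05 (adjusted p = 0.00108). Its paralogue Med12l moved the other way. It was weakly expressed, at 3.33, 3.01 and 2.95 CPM with guide 1 and 3.99, 3.76 and 3.53 CPM with guide 2, against 5.32, 4.39 and 4.95 CPM in GFPsg, and the log2 change was −0.52 ± 0.09 (adjusted p = 9.9e-05). Med13l, the paralogue of Med13, had 49.7, 50.0 and 48.5 CPM with guide 1 and 60.0, 51.5 and 45.9 CPM with guide 2, against 51.3, 44.4 and 47.8 CPM in GFPsg. The groups overlapped and the change of 0.09 was not called (adjusted p = 0.265, 95% interval −0.05 to 0.23). Without guide 2 replicate 3, the lowest of its group, Med13l was called higher (0.15, adjusted p = 0.0286), and over the other alternatives the change ran from 0.05 to 0.17 without a call.

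**Figure D2:**
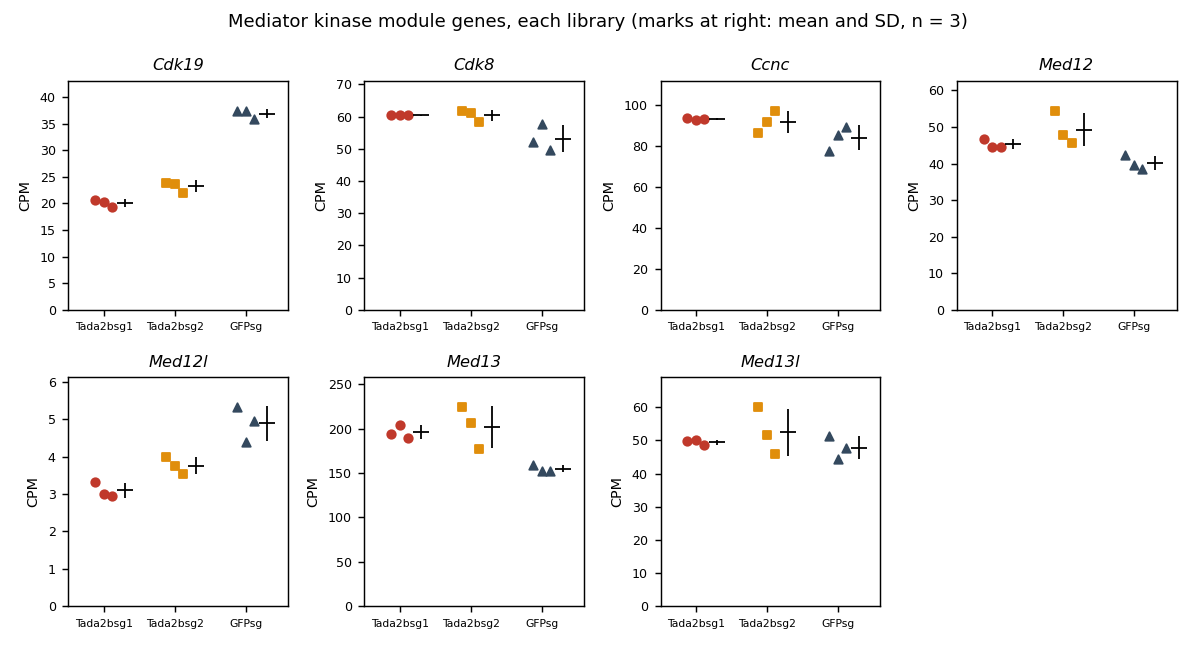
CPM on the y axis of the 7 kinase module genes in each of the 9 libraries, by group on the x axis, with the mean and SD of 3 libraries beside the points. All 6 libraries labelled knockout lie below the 3 controls for Cdk19 (at most 23.9 against at least 35.9 CPM) and above them for Med13 (at least 177 against at most 159 CPM).

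The 250 bases before a RefSeq transcription start (GRCm38.p6) are shown for 3 kinase module genes that rose and for Med12l, which fell, so that the letters of oppositely changed promoters can be compared. Where a gene had several starts, only the first listed was used, here and in the shares below. The window of Med12l begins at 59006728, inside the gene as annotated in GENCODE M21 (from 59005825). Capitals mark matches, on either strand, to the searched motifs: the TATA box TATAAA, the CCAAT box CCAAT, the GC box GGGCGG, the cyclic AMP response element TGACGTCA, the ETS site CCGGAAG and the E-boxes CACGTG and CATGTG.
Cdk8, chr5:146231000-146231249, plus strand: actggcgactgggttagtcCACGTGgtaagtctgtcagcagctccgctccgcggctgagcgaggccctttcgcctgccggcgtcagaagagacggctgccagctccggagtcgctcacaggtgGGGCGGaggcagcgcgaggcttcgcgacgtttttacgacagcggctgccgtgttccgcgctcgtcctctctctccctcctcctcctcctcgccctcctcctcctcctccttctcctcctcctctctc
Med12, chrX:101273841-101274090, plus strand: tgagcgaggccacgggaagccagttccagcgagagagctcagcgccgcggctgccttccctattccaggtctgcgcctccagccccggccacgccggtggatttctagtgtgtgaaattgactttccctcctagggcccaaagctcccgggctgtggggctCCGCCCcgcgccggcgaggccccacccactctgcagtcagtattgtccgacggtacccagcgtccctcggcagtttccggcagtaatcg
Med13, chr11:86357597-86357846, minus strand: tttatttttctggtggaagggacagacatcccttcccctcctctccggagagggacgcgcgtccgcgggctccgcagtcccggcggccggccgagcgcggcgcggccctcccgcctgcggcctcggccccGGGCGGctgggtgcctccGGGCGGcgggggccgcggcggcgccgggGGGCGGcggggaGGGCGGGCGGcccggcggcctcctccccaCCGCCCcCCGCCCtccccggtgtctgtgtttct
Med12l, chr3:59006728-59006977, plus strand: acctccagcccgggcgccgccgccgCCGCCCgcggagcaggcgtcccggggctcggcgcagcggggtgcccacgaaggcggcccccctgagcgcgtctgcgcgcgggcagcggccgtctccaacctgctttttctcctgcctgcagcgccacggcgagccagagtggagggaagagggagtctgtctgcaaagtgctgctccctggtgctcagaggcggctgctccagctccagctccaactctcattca
The GC box was present in all 4 promoters, once in Cdk8, Med12 and Med12l and 7 times in Med13, where 2 of the matches overlap. Cdk8 also held 1 CACGTG. None of the 4 held TATAAA in this window. Among the 48 genes 40 were matched to a promoter by symbol, while Cdk19, Med8, Med23, Med24, Med30, Taf2, Taf4b and Taf7 were not. The GC box was found in 27 of the 40 (67.5%) and in 32.9% of 27025 promoters of all kinds of gene, CCAAT in 40.0% and 34.5%, and TATAAA in 20.0% and 13.0%. The median GC content of the window was 56.2% for the 40 genes and 52.0% for all. It was 66.4% for Cdk8, 66.0% for Med12, 80.0% for Med13 and 72.0% for Med12l. These matches are descriptions of the letters, not of binding.

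The balance within paralogue pairs was then compared, a measure chosen after the values had been seen. For each pair the share of the alternative paralogue was taken from TPM (transcripts per 1 M), which accounts for exon length. Cdk19 made up 36.6, 36.1 and 35.0% of the summed Cdk8 and Cdk19 level with guide 1 and 39.4, 39.5 and 38.7% with guide 2, against 54.7, 52.2 and 54.9% in GFPsg. The more abundant kinase transcript was thus Cdk8 in the 6 libraries labelled knockout and Cdk19 in the 3 controls. The difference of −16.4 percentage points had p = 0.0238 in a two-sided exact permutation test over 6 and 3 libraries, the smallest p this design allows, and p = 0.0298 after adjustment over the 5 pairs compared. In every library labelled knockout Cdk19 was lower and Cdk8 higher than in every control, so this p was already fixed by those values. It adds no support to their calls. Without scaling by length the share of Cdk19 was 25.0% and 27.7% with the guides, against 41.0% in GFPsg, so that the direction held while the order of the kinases in the controls depended on length.

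Med12l contributed 3.96 ± 0.14% of the Med12 pair with guide 1 and 4.41 ± 0.15% with guide 2, against 6.84 ± 0.50% in GFPsg (SD, n = 3; adjusted exact permutation p = 0.0298). Med13l contributed 15.1 ± 0.34% and 15.4 ± 0.46% with the guides, against 17.8 ± 0.76% (adjusted exact permutation p = 0.0298). Its own level was not called, while that of Med13 rose. Of the TFIID pairs, Tbpl1 made up 83.0 ± 0.22% and 83.0 ± 0.62% with the guides, against 83.7 ± 0.10% in GFPsg (adjusted exact permutation p = 0.0298), a difference of −0.8 points that ran from −0.9 to −0.6 points without guide 2 replicate 2 or 3. Guide 2 replicate 2 and GFPsg replicate 3 both stood at 83.6% to the digits given. Without length scaling the differences were −4.1 points for Med12l and −1.4 points for Tbpl1. For Taf4b, the share of the Taf4 pair was 34.9 ± 0.41% and 35.5 ± 2.22%, against 36.6 ± 1.49%, and the libraries overlapped (adjusted exact permutation p = 0.238). Every other pair had the smallest p this design allows, so that p does not tell a difference of −16.4 points from one of −0.8. The p of the Med12 pair was likewise fixed, since Med12l was lower and Med12 higher in every library labelled knockout than in GFPsg. The test also took the libraries of both guides as 1 group.

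**Figure D3:**
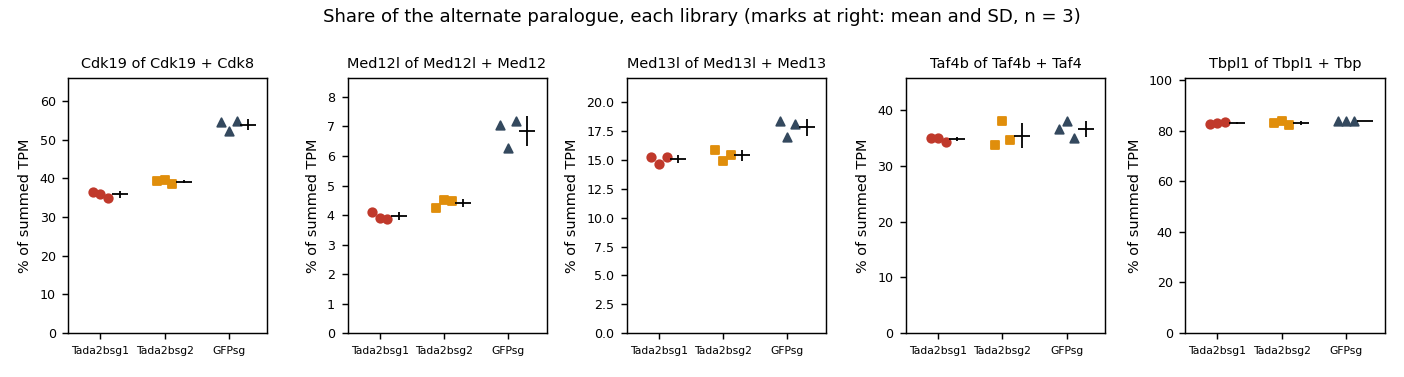
Share of the alternative paralogue in the summed TPM of its pair (y axis, percent) in each library, by group, with mean and SD of 3 libraries. The share of Cdk19 is 35.0 to 39.5% in the libraries labelled knockout and 52.2 to 54.9% in GFPsg, while the shares of Taf4b overlap.

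In the core of Mediator, without the kinase module, 25 genes were tested. Their median log2 change was 0.06, and 5 rose, 4 fell and 16 missed the threshold. The share called was 36.0%, against 51.0% of all genes tested (24.7% higher and 26.3% lower). With library size alone 13 were higher and none lower. The scaffold gene Med14 rose. It was counted at 98.3, 101 and 101 CPM with guide 1 and 106, 103 and 102 CPM with guide 2, against 87.1, 83.0 and 90.2 CPM in GFPsg. The groups were well apart, and the log2 change was 0.23 ± 0.03 (adjusted p = 2.81e-05).

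Of the 5 tail genes, whose products are main contact points for activators, Med15 and Med25 rose and Med16, Med23 and Med24 were not called. Med15 had 43.8, 42.6 and 43.9 CPM with guide 1 and 48.6, 43.1 and 41.1 CPM with guide 2, against 36.2, 34.6 and 34.0 CPM in GFPsg. The log2 change was 0.33 ± 0.05 (adjusted p = 2.33e-05), with no overlap between groups. Med25, which binds the activation domain of several factors, had 45.0, 43.0 and 43.6 CPM with guide 1 and 49.0, 43.6 and 43.3 CPM with guide 2, against 38.9, 36.1 and 37.0 CPM in GFPsg, a change of 0.26 ± 0.05 (adjusted p = 0.000158). Among Med27 to Med30, which are placed in the head or the tail depending on the structure, Med27 rose, at 14.0, 15.3 and 13.6 CPM with guide 1 and 13.5, 14.4 and 14.3 CPM with guide 2, against 12.2, 11.0 and 11.3 CPM in GFPsg (0.30 ± 0.06, adjusted p = 0.000366). Med28, Med29 and Med30 were not called.

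Of the 7 head genes, whose products contact polymerase and its C-terminal domain, 4 fell, where 26.3% of all genes tested did, and the median was −0.12. Med6 (0.06), Med11 (0.01) and Med22 (−0.01) were not called. Those that fell, named after their values were seen, were Med18 (−0.19), Med8 (−0.16), Med17 (−0.14) and Med20 (−0.12). With guide 2 alone all 4 of these were called, and with guide 1 alone none was, but for none of the 4 was the difference between the guides called. These calls were not firm, since with library size alone each of the 4 changes remained negative, none was called, and Med6 was called higher (0.15, adjusted p = 0.0111). Med17 was also lost without GFPsg replicate 2 (adjusted p = 0.224) or replicate 3 (0.0870), and Med18 without GFPsg replicate 3 (0.0522). Med20 was called in only 3 of 14 alternatives, over which its adjusted p ran from 0.0171 to 0.515, and leaving out any GFPsg library ended its call (0.0575 to 0.148), as did leaving out guide 1 replicate 1 (0.0711) or 3 (0.108) or guide 2 replicate 1 (0.102) or 2 (0.0641). In the middle, Med9 rose by 0.12 (adjusted p = 0.0214), a call that ended without GFPsg replicate 1 (0.0878) or replicate 3 (0.0602) and without the filter on low counts (0.0508), and the other 7 tested genes were not called with both guides together. With library size alone 6 of the 8 middle genes were higher. With guide 1 alone Med9, Med21 and Med31 were higher and Med26 lower, and with guide 2 alone none of the 8 was called. Med1, which binds nuclear receptors, stood at 0.07 and was not called. Med26, which recruits elongation factors, stood at −0.16 with both guides (adjusted p = 0.0572) and was called without guide 2 replicate 2 (−0.18, adjusted p = 0.0438).

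**Figure D4:**
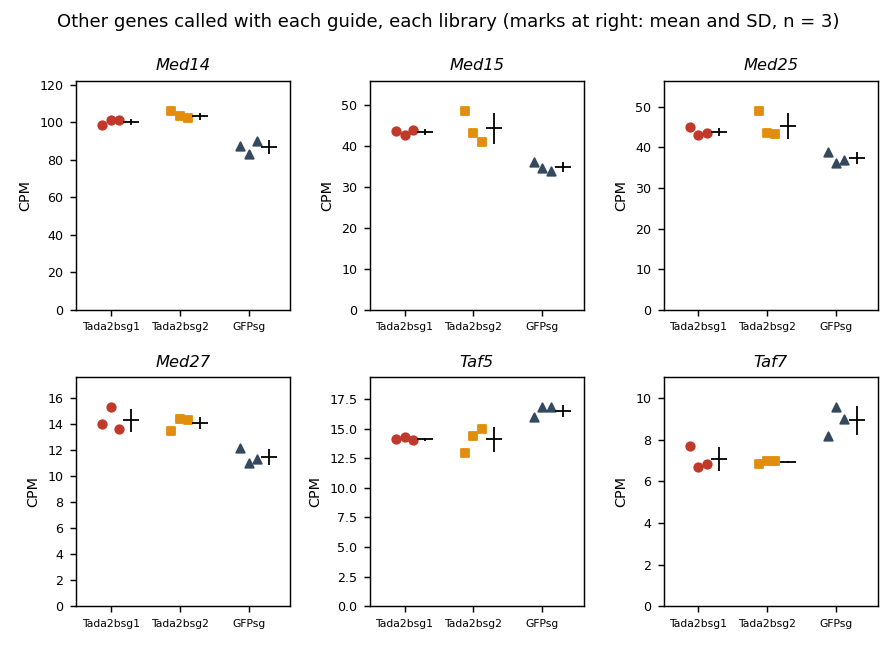
CPM on the y axis of the 6 genes outside the kinase module that were called in the same direction with each guide, in each of the 9 libraries by group, with mean and SD of 3 libraries. Med14, Med15, Med25 and Med27 lie higher in all 6 libraries labelled knockout than in the 3 controls, and Taf5 and Taf7 lie lower.

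Among 11 TFIID genes Taf5 and Taf7 were lower, none was higher and 9 were not called. The share called was 18.2%, against 51.0% of all genes tested (24.7% higher and 26.3% lower). With library size alone, Taf5 and Taf7 were still lower and 5 others were called higher, so that no direction can be given for TFIID as a group. Taf7, whose product binds TAF1 and restrains its acetyltransferase activity, was counted at 7.71, 6.68 and 6.82 CPM with guide 1 and 6.85, 6.96 and 6.98 CPM with guide 2, against 8.20, 9.56 and 9.02 CPM in GFPsg. The log2 change was −0.35 ± 0.07 (adjusted p = 0.000448). Taf5, which encodes a core scaffold of TFIID, had 14.1, 14.3 and 14.0 CPM with guide 1 and 12.9, 14.4 and 15.0 CPM with guide 2, against 16, 16.8 and 16.8 CPM in GFPsg, a change of −0.23 ± 0.05 (adjusted p = 0.00172). Neither gene overlapped between groups.

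Tbp, the TATA-binding subunit, was measured at 58.3, 58.2 and 58.8 CPM with guide 1 and 52.5, 54.9 and 57.8 CPM with guide 2, against 55.9, 59.2 and 60.1 CPM in GFPsg. The groups overlapped, and the change of −0.04 was not called (adjusted p = 0.397, 95% interval −0.12 to 0.04). Taf1, the largest subunit and an organiser of the complex, had 105 CPM in each of the guide 1 libraries and 119, 113 and 104 CPM with guide 2, against 106, 104 and 103 CPM in GFPsg, and its change of 0.06 was not called (adjusted p = 0.255, 95% interval −0.03 to 0.14). It was called higher with library size alone (0.14, adjusted p = 0.0127) and without guide 2 replicate 3 (0.10, adjusted p = 0.0263). Tbpl1, which encodes a TBP-related factor that does not bind the TATA box, was called lower (−0.12 ± 0.04, adjusted p = 0.0109), at 67.3, 68.4 and 70.1 CPM with guide 1 and 61.8, 67.4 and 64.9 CPM with guide 2, against 69.7, 73.7 and 73.9 CPM in GFPsg, where 1 guide 1 library exceeded the lowest control. That call ended with library size alone (−0.04, adjusted p = 0.399), without GFPsg replicate 2 (0.0834) and without GFPsg replicate 3 (0.0918). Taf4b (−0.04) and Taf15 (−0.03), an RNA-binding protein gene of the FET family, were not called.

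In all, 28 genes were not called with both guides together, as were 8790 of the 17931 genes tested. For 23 of them the whole 95% interval of the log2 change lay within 0.2 of zero, and the widest interval reached 0.31 from zero. A set of 24 genes was not called in any of the 4 contrasts: Med1, Med4, Med6, Med7, Med11, Med13l, Med16, Med19, Med22, Med23, Med24, Med28, Med29, Med30, Taf1, Taf3, Taf4, Taf4b, Taf6, Taf8, Taf11, Taf13, Taf15 and Tbp. The matching counts over all genes tested were not taken for the intervals or for the 4 contrasts together.

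Levels per length spanned a wide range within the complexes, which assemble with 1 copy of most subunits. The median over the 46 genes was 14.9 TPM in GFPsg. Highest was Med30, at 146 ± 4.33 TPM with guide 1 and 140 ± 9.08 TPM with guide 2, against 131 ± 5.95 TPM in GFPsg (SD, n = 3). It was followed by the head gene Med6, at 113 ± 3.01, 104 ± 4.25 and, in GFPsg, 97.1 ± 3.46 TPM. Taf15 came next, at 65.0 ± 2.21, 68.9 ± 4.64 and, in GFPsg, 64.1 ± 3.07 TPM, and then Med11, at 56.6 ± 0.92, 53.2 ± 3.26 and, in GFPsg, 51.2 ± 1.62 TPM. None of these 4 was called. At the low end, Med12l stood apart at 0.504 ± 0.05 and 0.622 ± 0.05 TPM with the guides, against 0.753 ± 0.11 TPM in GFPsg. The next lowest, Taf7 (4.45 ± 0.50 and 4.43 ± 0.08, against 5.28 ± 0.16 TPM), Med26 (4.46 ± 0.06 and 4.87 ± 0.43, against 4.89 ± 0.24 TPM) and Taf4b (5.01 ± 0.03 and 5.61 ± 0.27, against 5.10 ± 0.30 TPM), were close together, and in GFPsg Taf4b did not differ from either neighbour by more than their spread. Exon length was the union over all annotated transcripts, so genes with long rare exons are set too low on this scale.

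**Figure D5:**
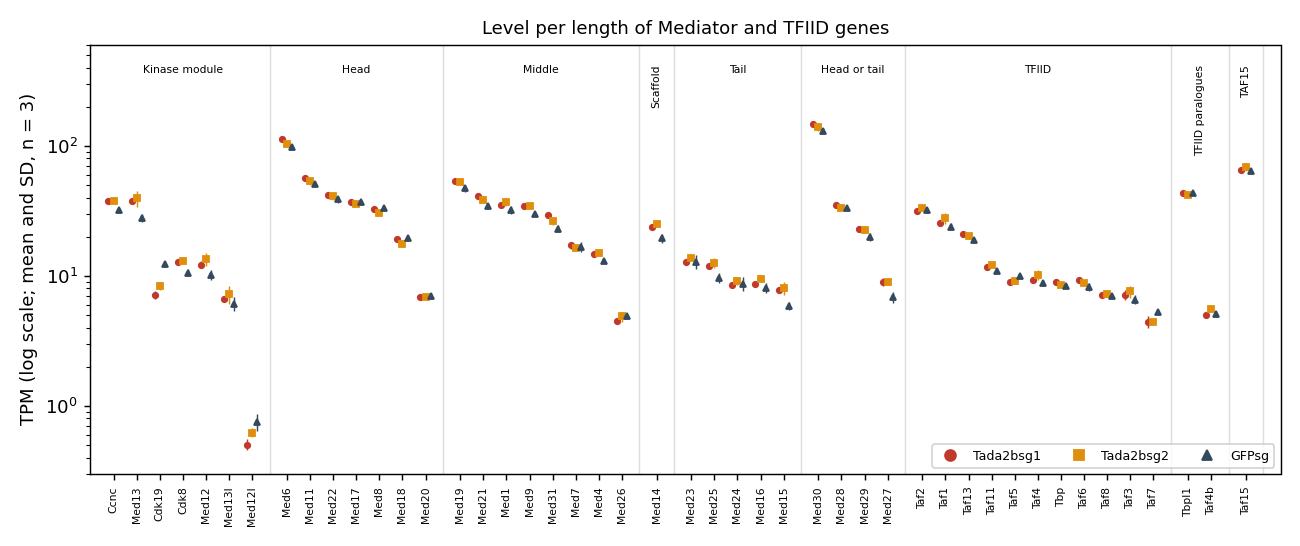
TPM on a log y axis (mean and SD of 3 libraries in each group) of the 46 tested genes, ordered within each module by their level in GFPsg. Med30 is highest at 131 TPM and Med12l lowest at 0.753 TPM in GFPsg, and the groups lie close together for most genes.

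Neither of the genes below the filter could be compared. Taf7l, a germ cell paralogue of Taf7, had 0 to 2 counts per library. Med10, a middle subunit, was listed at 0 in all 9 libraries. Of its annotated exon bases 92.81% are also covered by exons of Gm26819 on the opposite strand, which had 7 to 20 counts. HTSeq by default assigns a read that overlaps several genes to none, which covers opposite-strand overlaps only where strand is ignored. The strand setting is not given in the sources used here, so a 0 here does not show that the gene is silent. Pdcd2, all of whose exon bases lie within exons of Tbp on the opposite strand, was likewise listed at 0, and the overlap makes up 19.02% of the exon bases of Tbp. Counting that ignored strand would also lower Taf6 and Med31, of whose exon bases 26.47% and 26.3% lie under opposite-strand exons of Ap4m1 and 4930563E22Rik, and this was not tested.

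Gene length was set beside the changes after the values had been seen. Of the 12 tested genes with more than 7000 exon bases 6 rose and 2 fell, with a median change of 0.14, where 32.5% of 3102 protein-coding genes of that length were higher and 32.2% lower. Of the 23 with 3000 to 7000 bases 2 rose and 6 fell, with a median of −0.04, where 31.5% of 6127 were higher and 30.9% lower. Of the 11 under 3000 bases 1 rose and 1 fell, with a median of 0.03, where 27.3% of 3635 were higher and 29.4% lower. The medians of the genes examined thus did not follow length in order. Over all tested protein-coding genes they were 0.00, 0.00 and −0.02 in the same 3 classes with both guides together. With guide 1 alone these all-gene medians were −0.03, 0.01 and 0.01. With guide 2 alone they ran the other way, at 0.03, −0.00 and −0.04. The part of these opposite trends in the calls with single guides was not tested. Within their groups guide 2 replicate 1 and GFPsg replicate 1 read higher in long than in short genes, by 0.08 and 0.06 on the log2 scale, and in guide 2 replicate 3 and GFPsg replicate 2 the same difference was −0.07 and −0.05. The part of these library differences in the changes was not tested.

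The direct test between the guides called 1 gene. Set against GFPsg, guide 1 gave 17 calls among the 46 genes (37.0%, against 48.4% of all genes tested), 11 higher (23.8% of all genes) and 6 lower (24.5%), and guide 2 gave 16 (34.8%, against 45.1%), 7 higher (22.1%) and 9 lower (23.0%). Both contrasts share the control libraries. Between guide 2 and guide 1 only Cdk19 was called, where 3.68% of all genes tested were. It was higher with guide 2, as 2.66% of all genes were, and no gene examined was called lower, as 1.02% were. With the replicate number as a block 5 were called, 1 higher and 4 lower. It averaged 23.2 ± 1.12 CPM with guide 2 and 20.1 ± 0.70 CPM with guide 1 (SD, n = 3), a difference of 0.21 ± 0.05 (edgeR adjusted p = 0.0357). The call ended in 9 of 15 alternative settings, over which the adjusted p ran from 0.00578 to 0.216.

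Other genes of the polymerase II machinery were counted beside these. Of all genes tested 24.7% were higher and 26.3% lower, 51.0% in all. Of 17 genes of the factors TFIIA to TFIIH 7 rose and 6 fell, with a median of −0.02 (7 and 4, and 0.06, with library size alone). The largest change among those called alike with each guide was that of Gtf2h1, a TFIIH core subunit, at −0.53 (192 ± 1.86 and 211 ± 3.31 CPM with the guides, against 290 ± 3.41 CPM in GFPsg), followed by Gtf2f1 (0.31) and Gtf2a1 (0.27). Of 12 polymerase II subunit genes 4 rose and none fell, with a median of 0.09 (7 and 0, and 0.17, by library size alone), and Polr2l (0.36), Polr2h (0.33) and Polr2c (0.27) led. Of 18 elongation genes 9 rose and 2 fell, with a median of 0.10 (13 and 1, and 0.18, with library size alone), led by Aff1, a scaffold of the super elongation complex, at 1.17, then Ell (0.25) and Larp7 (0.22). Among the 6 genes shared with SAGA or paralogous to its subunits 3 rose and none fell (5 higher with library size alone): Taf9b changed by 1.18 (45.0 ± 0.973 and 41.8 ± 1.35 CPM with the guides, against 19.1 ± 1.24 CPM in GFPsg), Taf5l by 0.30 and Taf12 by 0.22. The change of Taf9b was thus larger than that of each of the 46 genes examined here. Of the 4 SL1 genes Taf1a rose (0.28) and the other 3 fell (2 with library size alone), among them Taf1d (−0.44) and Taf1b (−0.15). In the order given, the shares of the lists that were called were 76.5%, 33.3%, 61.1%, 50.0% and 100%, beside 51.0% of all genes tested. No test compared these lists with the Mediator and TFIID genes or with all genes.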

How the data were processed

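Reads were processed by the submitters with bcl2fastq, HISAT2 and HTSeq on mm10, per the submitters' processing notes. Their versions, annotation, strand setting and filters are not given in the sources used here. The deposited values are raw counts per gene, as their whole numbers show. The library kit was the KAPA Stranded mRNA-Seq kit, per the labels' protocols.

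Of 54752 identifiers, 54723 matched GENCODE M21, which supplied symbols, positions and union exon lengths. Genes were kept by filterByExpr (count minimum 10), leaving 17931 with 99.97% of counts, and tested with edgeR 4.0.16 (R 4.3.3): TMM scaling, 1 quasi-likelihood fit of the 3 groups, Benjamini-Hochberg adjustment over all genes tested and a threshold of 0.05. Standard errors were derived from the F statistic. CPM used TMM-scaled library sizes, and TPM were computed here from counts and exon lengths. The labels do not say whether replicates were separate cultures, so each p-value reflects the spread among these libraries alone, possibly technical. No replicate pair agreed within sampling noise (chi-square per degree of freedom 7.12 to 22.7). The steps were tested on simulated counts in which far fewer genes were changed than were called here. That run does not check how scaling sets the direction of the calls.

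The genes examined, the lists and the tests were chosen with earlier results of these data known. Named genes were the kinase module, Tbp, Tbpl1 and Taf1, those called alike with each guide (up to 12), those called between guides (up to 6), the 4 highest and 4 lowest by TPM, and those below the filter. In the related lists they were the 3 largest changes called alike with each guide. Alternatives were other scalings, DESeq2 1.42.0, no filter, a replicate block, fits of only the groups compared and leaving out each library. Other genes named were chosen after their values were seen.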

Additional observations from a re-analysis of the deposited data

Results flagged for a closer look

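Cdk19 differed between the guides, with a log2 difference of 0.21 (guide 2 minus guide 1; 23.2 ± 1.12 CPM with guide 2 and 20.1 ± 0.70 CPM with guide 1, SD, n = 3). It drew attention because the test of guide 2 against guide 1 itself passed the threshold (edgeR adjusted p = 0.0357), although the gene was lower than in GFPsg with each guide. The melanocyte markers examined differed between the guides too, all 7 being called higher with guide 2 than with guide 1, and whether these differences are related was not tested.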

How the results depend on the processing

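The number of called genes kept within 1.5 times its reported value for both guides against GFPsg (18; 16 to 26 over 14 alternatives), for guide 1 (17; 12 to 23 over 15) and for guide 2 (16; 15 to 23 over 15). A fit of only the groups compared exists for single guides alone, since both guides together use all groups. The split by direction did not hold: with library size alone 22 were higher and 4 lower for both guides (9 and 9 with TMM), 20 and 3 with guide 1, and 17 and 5 with guide 2, while the median of all genes tested moved from −0.019 to 0.066. Between the guides the count of 1 became 0 with library size alone and with only the groups compared, and 0 to 2 when 1 library was left out. The titles state no shared culture or day for libraries of the same number, so the numbers were not treated as pairs. Same-numbered libraries deviated with correlations of −0.012 to 0.1, and differently numbered ones of different groups with −0.088 to 0.041. The replicate block gave 22 calls for both guides, 21 with guide 1, 23 with guide 2 and 5 between the guides (1 higher, 4 lower). Signs were followed over the settings only for genes named by the rule above and those called with both guides together. Other genes may have turned as well. Of those followed, signs turned for genes not called in either setting. With library size alone these were Tbp (0.04), Taf15 (0.05) and Taf4b (0.05). When 1 library was left out they were Taf4b (−0.06 to 0.01), Med30 (−0.04 to 0.08) and Med11 (−0.01 to 0.05, with −0.00 without Tada2bsg1 replicate 2 or Tada2bsg2 replicate 3). The difference in the Cdk19 share ran from −17.2 to −15.8 percentage points when 1 library was left out and was −14.7 without length scaling, alternatives chosen after seeing the data. The cause of these shifts was not tested. With standard errors of 0.03 to 0.09, intervals of genes not called reached up to 0.31 from zero.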
